A study of Mus musculus with 8 samples.

Results

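Of 17546 MOF peaks in newborn mouse epidermis, 4775 (27.2%) overlapped an H3K4me3 peak and an H3K27ac peak and were under 1500 bp wide, and these are described here. They were selected on 3 measured values: the width of the MOF peak, on chromosomes 1 to 19, and an overlap of at least 1 bp with a peak of each mark. They made up 31% of the 15426 MOF peaks under 1500 bp on these chromosomes. The other MOF peaks of that width overlapped H3K4me3 only (1060), H3K27ac only (624) or neither mark (8967), and 1231 MOF peaks with both marks were 1500 bp or wider. All libraries came from wild-type total epidermis at postnatal day 0.5, a mixture of epidermal cells with no further treatment or mutation. The MOF library was made by ChIPseq, a pull-down from fixed and sheared chromatin. The H3K4me3, H3K27ac and Rfx2 libraries were made by Cut&Run, where a nuclease tethered to the antibody releases the bound fragments. Although H3K4me3 and H3K27ac each had 2 libraries, 1 peak list per antibody was analysed, so no value below has a replicate error, and the 95% intervals reflect only the counting error of peaks or genes.

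MOF (KAT8) is the acetyltransferase of lysine 16 of histone H4. It works in the NSL complex, which is found mostly at promoters of broadly used genes, and in the MSL complex. H3K4me3 marks promoters that are in use, and H3K27ac marks active promoters and active enhancers, which stimulate a promoter from a distance. CpG islands, which are stretches rich in CG dinucleotides, form the promoters of most broadly used mammalian genes. Rfx2 belongs to the RFX family, which binds the X-box in promoters of genes for cilia.

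The labelled tissue was checked against genes with H3K4me3 at the promoter, taken as the stretch between 1 kb before and 100 bp after a transcription start site (TSS). Of 12 defining epidermal markers, 7 carried H3K4me3 (Krt5, Krt14, Trp63, Itgb4, Dsp, Perp and Sfn). The other 5 did not (Krt1, Krt10, Itga6, Lor and Ivl). Over all 24963 genes the share with H3K4me3 was 54.7%, so the count over these 12 is near that of any gene, while 46 of the 59 genes of the wider epidermis list carried it. H3K4me3 was at 0 of 6 promoters of immune markers, 1 of 4 endothelial (Kdr), 2 of 5 fibroblast (Pdgfra and Dcn) and 2 of 6 melanocyte markers (Mitf and Pmel).

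The sequences below are examples from 8 named promoters and from the member with the highest MOF score. Each is 160 bases of the plus strand of GRCm38.p6 (mm10), read 5′ to 3′, around a motif match in the 500 bp at the centre of the MOF peak. Most members had no such match: over all members, these 500 bp held the ETS motif in 8.92%, NRF1 in 5.40%, the X-box in 1.72% and the E-box in 12.4%. In the first 5, at promoters of MOF itself, the respiratory chain, the proteasome and deacetylase pair, a ciliary protein and the member with the highest Rfx2 enrichment, capitals mark the ETS motif (CCGGAAGT or its reverse complement).

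Kat8, chr7:127912441-127912600: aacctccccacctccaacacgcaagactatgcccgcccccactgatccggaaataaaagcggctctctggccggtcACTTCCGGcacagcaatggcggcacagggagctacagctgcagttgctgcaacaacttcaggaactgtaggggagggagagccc

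Uqcrq, chr11:53430743-53430902: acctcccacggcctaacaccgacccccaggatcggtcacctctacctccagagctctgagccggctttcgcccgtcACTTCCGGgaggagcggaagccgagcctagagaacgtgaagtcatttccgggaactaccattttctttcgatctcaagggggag

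Sirt3 and Psmd13, chr7:140882312-140882471: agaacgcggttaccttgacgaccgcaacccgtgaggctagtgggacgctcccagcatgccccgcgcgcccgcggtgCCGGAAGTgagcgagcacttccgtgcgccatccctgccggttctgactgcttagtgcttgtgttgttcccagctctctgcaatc

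Tmem138, chr19:10577330-10577489: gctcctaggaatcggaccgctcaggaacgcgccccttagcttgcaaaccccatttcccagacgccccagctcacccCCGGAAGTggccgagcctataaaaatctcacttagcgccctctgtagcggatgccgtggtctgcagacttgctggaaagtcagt

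Ap1m1, chr8:72239885-72240044: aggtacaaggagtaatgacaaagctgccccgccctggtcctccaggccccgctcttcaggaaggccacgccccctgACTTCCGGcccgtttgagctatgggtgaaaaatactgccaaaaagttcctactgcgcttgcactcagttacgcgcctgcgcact

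The ETS match began at the TSS position itself (127912517) at Kat8, 6 bp from the Psmd13 TSS, 12 bp from the Uqcrq TSS, 20 bp from the Tmem138 TSS and 57 bp from the Ap1m1 TSS. In the next pair capitals mark the NRF1 motif (GCGCATGC), of which each promoter held 2 overlapping matches on opposite strands, starting 59 bp from the Opa1 TSS and 30 bp from the Uqcrc1 TSS.

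Opa1, chr16:29579199-29579358: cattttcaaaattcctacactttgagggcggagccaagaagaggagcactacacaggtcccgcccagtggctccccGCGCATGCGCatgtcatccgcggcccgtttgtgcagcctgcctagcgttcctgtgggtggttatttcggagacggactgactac

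Uqcrc1, chr9:108936602-108936761: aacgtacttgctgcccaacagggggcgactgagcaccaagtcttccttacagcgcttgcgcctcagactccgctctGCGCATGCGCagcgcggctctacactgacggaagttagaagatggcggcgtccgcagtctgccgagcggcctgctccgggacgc

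The last pair shows the X-box, in capitals, 28 bp from the Fars2 TSS in the promoter that Fars2 shares with Lyrm4, and a distal member, in which capitals mark the E-box (CACGTG) and the nearest TSS lay 91529 bp away.

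Lyrm4 and Fars2, chr13:36117542-36117701: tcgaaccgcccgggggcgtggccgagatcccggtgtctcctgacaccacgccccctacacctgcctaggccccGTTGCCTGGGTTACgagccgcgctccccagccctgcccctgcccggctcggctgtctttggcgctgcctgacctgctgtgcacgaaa

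Highest MOF score, chr11:109011722-109011881: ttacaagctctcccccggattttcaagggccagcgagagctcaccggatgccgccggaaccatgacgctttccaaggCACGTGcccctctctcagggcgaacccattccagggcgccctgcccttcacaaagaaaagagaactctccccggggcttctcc

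The values that chose the members are given as a description. Members had a median width of 823 bp (quartiles 530 to 1105), and together covered 3.95 Mb. The MOF score, whose scale is not stated and which only ranks peaks within the list, had a median of 651 and ran from 208 to 65333. It took 934 different values, and 171 members shared the most frequent value of 494. The fold enrichment of the overlapped peak had a median of 8.23 for H3K4me3 (quartiles 6.40 to 10.3) and 6.91 for H3K27ac (5.36 to 8.54). Members just inside the width limit lay at Pafah2 (a phospholipase, 1499 bp), between Gm33044 and Rnf34 (a ubiquitin ligase, 1499 bp) and at Cpeb4 (an mRNA-binding protein, 1498 bp). Their MOF scores were 1191, 494 and 405. MOF peaks just outside it lay at Rrp1 (ribosome biogenesis, 1501 bp, score 474) and at Sh3bp5 (1502 bp, score 736). The smallest overlaps that still made a member were 3 bp with H3K4me3 (near Sbk1) and 1 bp with H3K27ac (near Rem2). The nearest misses lay 4 bp from an H3K4me3 peak (near Nrtn) and 1 bp from an H3K27ac peak (near Zfp758).

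Few members rested on such edges. An overlap under 50 bp was seen with H3K4me3 in 13 members and with H3K27ac in 34. The 3 peaks shared at least 1 bp in 4749 members (99.5%), so that in 26 members the marks lay under different stretches of the MOF peak. H3K4me3 covered the whole MOF peak in 54.3% of members, H3K27ac in 29.4% and both marks together in 23.4%. The centre of the MOF peak lay under H3K4me3 in 90.5% and under H3K27ac in 83.8%. The MOF list also gave inner blocks, the denser stretches within a peak, with a median of 322 bases per member. An inner block touched both marks in 94.9% of members and neither mark in 30 members (0.628%). Most members met 1 peak of each mark: 96.6% overlapped a single H3K4me3 peak and 95.9% a single H3K27ac peak, while 14 H3K4me3 peaks each held 2 members.

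To place the 3 peaks around the start of transcription, the 2288 members with exactly 1 annotated TSS inside were aligned on it. The centre of the MOF peak lay at a median of 70 bp downstream of the TSS (quartiles −67.0 to 197), the H3K27ac summit at 98.0 bp (−78.0 to 203) and the H3K4me3 summit at 138 bp (4.75 to 329). Taken from the inner blocks instead, the MOF centre lay at a median of 33.9 bp (−102 to 162). The H3K4me3 summit was downstream of the MOF centre in 62.9% of these members (60.9 to 64.9) and downstream of the H3K27ac summit in 62% (60 to 64.0). The H3K27ac summit was downstream of the MOF centre in 52.6% (50.6 to 54.7). At 500 bp downstream of the TSS, the MOF peak covered 46.5% of members, H3K27ac 57.6% and H3K4me3 91.4%, and at 500 bp upstream they covered 26.2%, 24.1% and 41.1%. Each of the 3 thus covered more members at 500 bp downstream than at 500 bp upstream. Members were required to overlap both marks and, in this alignment, to hold the TSS, so the height of the curves at the TSS is set by the selection. The MOF peaks were also limited to under 1500 bp and the mark peaks were not, so the reach of MOF and of the marks cannot be compared here.

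**Figure D1:**
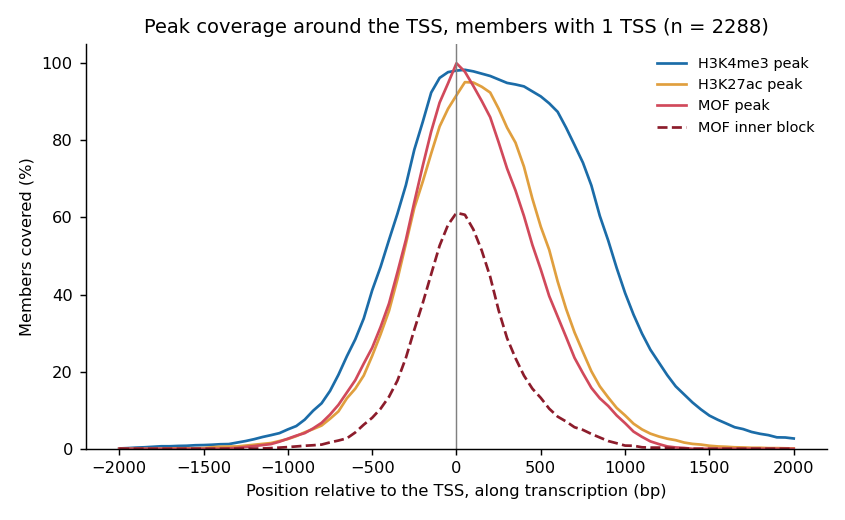
Share of the 2288 members with 1 TSS (%) covered by the MOF peak, its inner blocks, the H3K4me3 peak and the H3K27ac peak at each position from the TSS along transcription (bp). The H3K4me3 curve lies highest on the downstream side, at 40.4% of members at 1000 bp against 6.64% for MOF, whose width the selection limits, and 8.65% for H3K27ac.

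Most members lay near a TSS. The centre of 3642 members (76.3%, 75 to 77.5) lay within 1 kb of a TSS, against 28.0% of all MOF peaks under 1500 bp. The share was 35.6% for MOF peaks with H3K4me3 only, 4.65% with H3K27ac only and 3.07% with neither mark. The difference from the H3K4me3-only peaks was 40.7 percentage points (37.5 to 43.8). Wide MOF peaks with both marks exceeded the members slightly, at 80.1%, a difference of −3.83 points (−6.29 to −1.22). By the position of their centre, 48.6% of members lay in a promoter as defined above, a narrower stretch, 13.8% in an exon, 25% in an intron and 12.7% between genes. With GENCODE transcripts in place of curated RefSeq ones, 81.0% lay within 1 kb of a TSS.

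The sequence of the members was CpG-rich in most cases. A 500 bp window at the centre counted as CpG-rich with a GC content above 50% and an observed to expected CpG ratio above 0.6. This held for 64.3% of members (62.9 to 65.7) against 23.5% of all MOF peaks under 1500 bp, 31.9% with H3K4me3 only, 0.962% with H3K27ac only and 2.30% with neither mark. The median GC content of the members was 59.8% and the median CpG ratio 0.727. Sequence that recurs in the genome was less frequent in members than in peaks without H3K27ac. In 40 members (0.838%) more than 50% of the words of 31 bases were found at several places of the assembly, against 18.8% of H3K4me3-only peaks and 16.2% of peaks with neither mark.

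**Figure D2:**
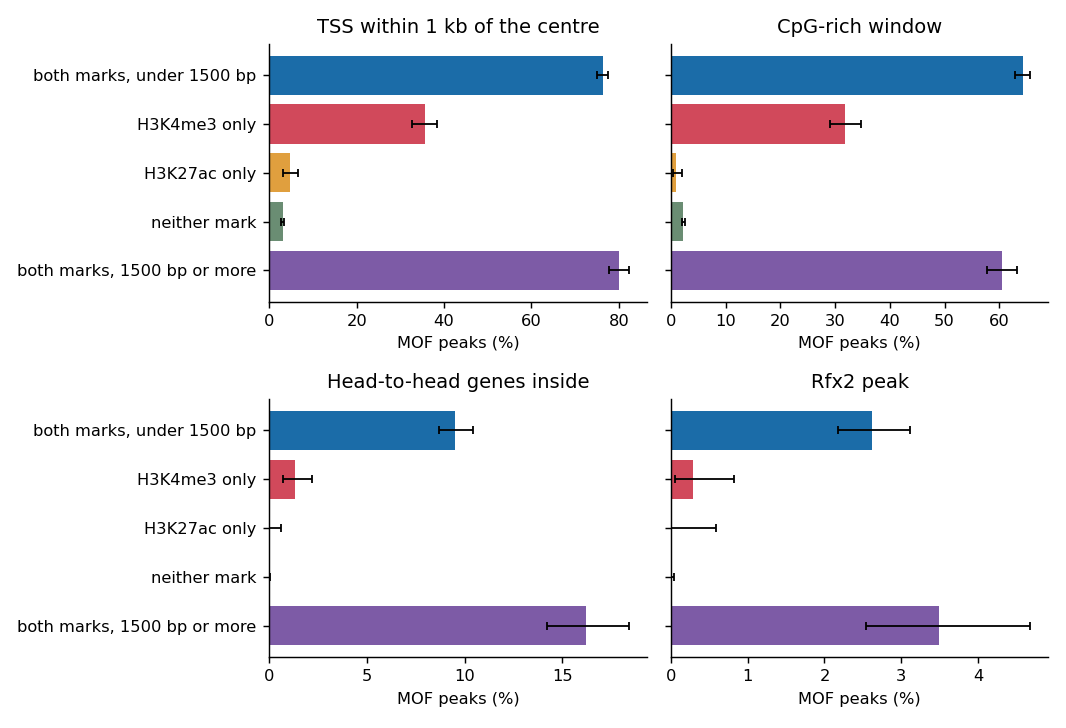
Share of MOF peaks (%) with a TSS within 1 kb of the centre, a CpG-rich window, head-to-head genes inside and an Rfx2 peak, in the 4775 members and the 4 other classes of MOF peak. Bars are shares and lines exact 95% intervals, and the members exceed the 3 other classes under 1500 bp in every panel, while wide peaks with both marks lie higher for TSS (80.1%) and head-to-head genes (16.2%) and lower for CpG-rich windows (60.5%).

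Some members held the TSSs of more than 1 gene. The TSSs of 2 genes lay inside 525 members (11%), of 3 or more genes inside 12 (0.251%), of 1 gene inside 2524 (52.9%), and 1714 (35.9%) held no TSS. In 453 members (9.49%, 8.67 to 10.4) the genes were head-to-head, that is on opposite strands, pointing apart and with TSSs at most 1 kb from each other. This share was 3.03% of all MOF peaks under 1500 bp, 1.32% with H3K4me3 only and 0 of 624 with H3K27ac only. In wide MOF peaks with both marks it was 16.2%, higher than in the members (members minus wide peaks −6.76 points, −9.07 to −4.62). Within the members it ran from 2.71% of members of 200 to 470 bp to 14.3% of those of 938 to 1168 bp and 13.9% of those of 1169 to 1499 bp. The share thus differed with the width, and the part of peak width was not tested. Head-to-head members were CpG-rich in 91.4% of cases against 78.0% of the other members with a TSS within 1 kb (difference 13.4, 10.1 to 16.1). They held the ETS motif in 17.2% against 10.3% (difference 6.90, 3.52 to 10.8) and an Rfx2 peak in 5.30% against 2.76% (2.54, 0.715 to 5.06). Their median width was 993 bp against 829 bp.

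Whether members differ from sites with the same marks and no MOF was examined from the side of H3K4me3. Among its peaks with H3K27ac, 4871 overlapped a member and 10642 overlapped no MOF peak. Those with a member had a TSS within 1 kb in 76.0% against 52.5% (difference 23.5, 22.0 to 25.1), were CpG-rich in 64.5% against 39.1% (25.4, 23.7 to 27) and held head-to-head genes in 11.2% against 3.73% (7.46, 6.52 to 8.44). They were also wider, with a median of 1268 bp against 880 bp, and stronger, with a median fold enrichment of 8.16 against 6.67. In 4 classes of H3K4me3 peak width, the TSS difference was 2.08 points (−1.09 to 5.63) from 200 to 548 bp, 10.3 (6.78 to 13.8) from 549 to 1025 bp, 7.93 (5.67 to 10.1) from 1026 to 1453 bp and 8.87 (6.88 to 10.9) above that. The head-to-head difference was 0 points (−0.115 to 0.681), 1.26 (0.333 to 2.46), 3.03 (1.51 to 4.66) and 10.7 (8.32 to 13.1) in these classes, in the same order. At similar width the differences were thus smaller than over all peaks, except that of head-to-head genes in the widest class, and the part of peak height was not tested.

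Motifs were compared at the same place, in 500 bp windows centred on TSSs at which both marks lay, so that the distance to the TSS was equal. The window was centred on 3617 TSSs under a member and on 4913 TSSs with no MOF peak within 1 kb. Of 11 motifs searched on both strands, 5 had a difference whose interval excluded 0, all of them more frequent under members. The YY1 motif (AAGATGGC), bound by a zinc finger factor of many promoters, was in 11% against 5.25% (difference 5.75, 4.57 to 6.97). The ETS motif, bound by factors such as GABPA that act at genes of mitochondria and translation, was in 15.8% against 10.3% (5.51, 4.06 to 6.98). NRF1, a regulator of nuclear genes for mitochondria, had its motif in 9.01% against 6.19% (2.83, 1.69 to 3.99). The CREB motif (TGACGTCA) was in 5.17% against 3.52% (1.65, 0.776 to 2.56) and the ZNF143 motif (ACTACAAT) in 1.69% against 0.997% (0.689, 0.20 to 1.22). At all 30177 annotated TSSs these shares were 4.50% for YY1, 5.36% for ETS, 3.69% for NRF1, 2.46% for CREB and 0.994% for ZNF143. A match is a run of letters and does not show that the factor was bound. The strength of the marks was not made equal between TSSs under a member and TSSs without MOF. Within the members, the ETS share was 3.25% in the lowest and 12.7% in the highest of 5 classes of H3K27ac fold enrichment. The part of mark strength in the motif differences was not tested.

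The remaining motifs differed by intervals that included 0. They were the GC box of SP and KLF factors (GGGCGG, 80.4% against 81.3%), the CCAAT box of NFY (46.0% against 44.9%), the TATA box (TATAAA, 6.64% against 6.51%), the E-box (14.2% against 14.2%), the AP-1 site (TGANTCA, 5.78% against 6.29%) and the X-box (2.13% against 2.26%). The windows under members were CpG-rich more often, in 90% against 81.2%. Among the CpG-rich windows alone, the differences were 5.71 points for YY1 (4.39 to 7.05), 5.14 for ETS (3.52 to 6.78) and 2.62 for NRF1 (1.34 to 3.92), while the GC box was less frequent under members by 4.31 points (−4.31, −5.98 to −2.65). Since TSSs of the same gene share sequence, the comparison was repeated with 1 TSS per gene, and the differences were 5.6 points for YY1 (4.34 to 6.90), 5.74 for ETS (4.20 to 7.30) and 2.69 for NRF1 (1.48 to 3.93). This does not remove sequence shared between the windows of head-to-head genes.

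**Figure D3:**
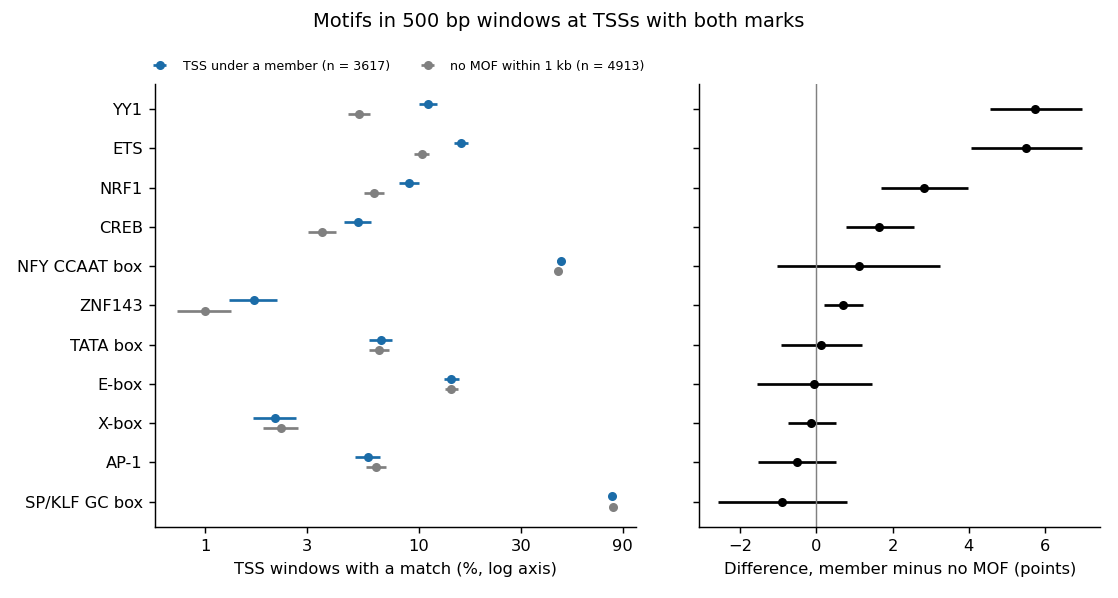
Left, share of 500 bp TSS windows with a match to each motif (%, log axis) for 3617 TSSs under a member and 4913 TSSs with both marks and no MOF within 1 kb, with exact 95% intervals. Right, the difference in percentage points with its Newcombe 95% interval, which lies above 0 for YY1, ETS, NRF1, CREB and ZNF143.

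Rfx2 lay at a small share of members, and few Rfx2 peaks met other MOF peaks of this width. An Rfx2 peak overlapped 125 members (2.62%, 2.18 to 3.11), against 0.830% of all MOF peaks under 1500 bp, 3 of 1060 with H3K4me3 only (0.283%), 0 of 624 with H3K27ac only, which allows up to 0.589%, and 0 of 8967 with neither mark, which allows up to 0.0411%. Wide MOF peaks with both marks had it in 3.49%, and the difference from the members included 0 (−0.875, −2.13 to 0.141). The 125 Rfx2 peaks under members were 37.1% of the 337 in the list. Among H3K4me3 peaks with H3K27ac, Rfx2 was at 2.77% of those with a member and 1.11% of those without MOF (difference 1.66, 1.19 to 2.19), and the interval excluded 0 in each of the 4 width classes, the smallest difference being 1.07 points (0.133 to 2.08).

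The members with Rfx2 lay within 1 kb of a TSS more often than the others, in 89.6% against 75.9% (difference 13.7, 6.99 to 18.1). They held head-to-head genes in 19.2% against 9.23% (9.97, 3.97 to 17.8) and were CpG-rich in 82.4% against 63.8%. The X-box was found in 12% of them and in 1.44% of the members without Rfx2 (difference 10.6, 5.95 to 17.4), so that most members with Rfx2 had no match in the 500 bp window. The median MOF score was 683 with Rfx2 and 651 without.

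The 5 members with the highest Rfx2 enrichment lay at 4 promoters and a distal site. The member at Ap1m1, a subunit of a clathrin adaptor, had an Rfx2 fold enrichment of 22.6, an H3K4me3 fold enrichment of 10.6, an H3K27ac fold enrichment of 8.48 and a MOF score of 544. The member at Mib2, a ubiquitin ligase that acts in Notch signalling, had an Rfx2 fold enrichment of 20.4 and a MOF score of 588. The member at Sec16a, which organizes sites of export from the endoplasmic reticulum, had 19.3 and 533, and the member at Dyrk1b, a protein kinase, had 17.8 and 739. At all 4 promoters the MOF score lay between the lower and upper quartiles of the members (494 and 859), whereas the distal site, with an Rfx2 fold enrichment of 21.8, had the highest MOF score of all.

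Of 15 loci fixed by name, 13 had a member at the promoter, 6 of them with Rfx2. Over all 24963 genes, 16.6% had a member at the promoter and 0.613% had a member and Rfx2. The loci are genes that the study names, several of them as examples of MOF or Rfx2 binding, so the count is no independent evidence. Loci without a member were Wdr34, which had a wide MOF peak with both marks and Rfx2, and Stfa1, which had neither such a peak nor Rfx2. The study describes Stfa1 as no target of MOF. At Kat8, the gene of MOF itself, the member (chr7:127911792-127912967, 1176 bp) had a MOF score of 987, an H3K4me3 fold enrichment of 11 and an H3K27ac fold enrichment of 7.26. Its central window was below the CpG limit, with an observed to expected ratio of 0.564. For the respiratory chain, the member at Uqcrq (QP-C, a subunit of complex III) had a score of 1279, at Sdha (complex II, shared with Ccdc127) 1160 and at Uqcrc1 (complex III) 766. Their H3K4me3 fold enrichments were 8.58, 9.14 and 10.4, and their H3K27ac fold enrichments 9.01, 10.1 and 9.39. At Opa1, which fuses the inner mitochondrial membrane, the score was 1116 and the fold enrichments 10.9 and 9.33, in the same order. At Scp2, a sterol carrier protein, they were 736, 13.5 and 9.34.

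The 4 members with Rfx2 among these loci were shared promoters, and the loci were known as such when they were chosen. The member of Lyrm4, an iron-sulfur cluster protein, and Fars2, a mitochondrial aminoacyl-tRNA synthetase, had a MOF score of 996, an H3K4me3 fold enrichment of 7.79, an H3K27ac fold enrichment of 10.4 and an Rfx2 fold enrichment of 9.51. The member of Sirt3, a mitochondrial deacetylase, and Psmd13, a proteasome subunit, had 835, 8.32, 9.47 and 10.6. At Ift122, a subunit of intraflagellar transport, and Mbd4 they were 653, 9.81, 7.81 and 8.36, and at Tmem138, a protein of the ciliary transition zone, and Cyb561a3 they were 919, 8.40, 14 and 7.13. The member at Ift74, also of intraflagellar transport, was only 210 bp wide, had a MOF score of 919 and fold enrichments of 11 and 11.3 and did not overlap Rfx2.

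At the level of genes, 4155 of 24963 genes on chromosomes 1 to 19 (16.6%) had a member at the promoter, of which 3832 code for proteins. Of the 10968 genes with both marks at the promoter, 4100 (37.4%) had a member there. The gene lists below are read against this last share. A list of genes was read only by its counts and interval. With 50% of MOF peaks by score the gene count was 2641, and with a width limit of 1000 bp it was 2556.

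Genes for splicing, translation, respiration and cell division had a member more often than genes with both marks did in general. Of the genes with both marks, a member was at 27 of 43 spliceosome genes (62.8%, 46.7 to 77.0), 46 of 77 mitochondrial ribosome genes (59.7%, 47.9 to 70.8), 42 of 71 electron transport chain genes (59.2%, 46.8 to 70.7), 43 of 74 cytosolic ribosome genes (58.1%, 46.1 to 69.5) and 20 of 35 proteasome genes (57.1%, 39.4 to 73.7). For the centrosome it was 23 of 42 (54.8%, 38.7 to 70.2) and for the cell cycle 32 of 59 (54.2%, 40.8 to 67.3). The intervals of these 7 lists lay above 37.4%. Those of 4 lists included it: aminoacyl-tRNA synthetases (19 of 37, 34.4% to 68.1%), DNA repair (25 of 58, 30.2% to 56.8%), cilium (27 of 82, 22.9% to 44.2%) and MOF with its partners (5 of 9, 21.2% to 86.3%). A gene without a member can still have MOF. For example, 10 ciliary, 9 mitochondrial ribosome and 11 cytosolic ribosome genes had only a wide MOF peak, of 1500 bp or more.

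The lists also differed in promoter sequence. Of genes with both marks, 39.1% of the 9385 with a CpG-rich TSS window had a member, and 26.9% of the 1583 without one. CpG-rich genes made up 97.7% of the spliceosome list, 94.4% of the electron transport chain list, 92.7% of the cilium list and 50% of the epidermis list. Among CpG-rich genes alone, a member was at 64.3% of spliceosome genes (48 to 78.4), 61.2% of electron transport chain genes (48.5 to 72.9), 61.1% of mitochondrial ribosome genes (48.9 to 72.4) and 32.9% of cilium genes (22.5 to 44.6). Of the 7 lists above 37.4%, 6 had intervals above the 39.1% of all CpG-rich genes, and the interval of the centrosome list included it (22 of 41, 53.7%, 37.4 to 69.3).

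**Figure D4:**
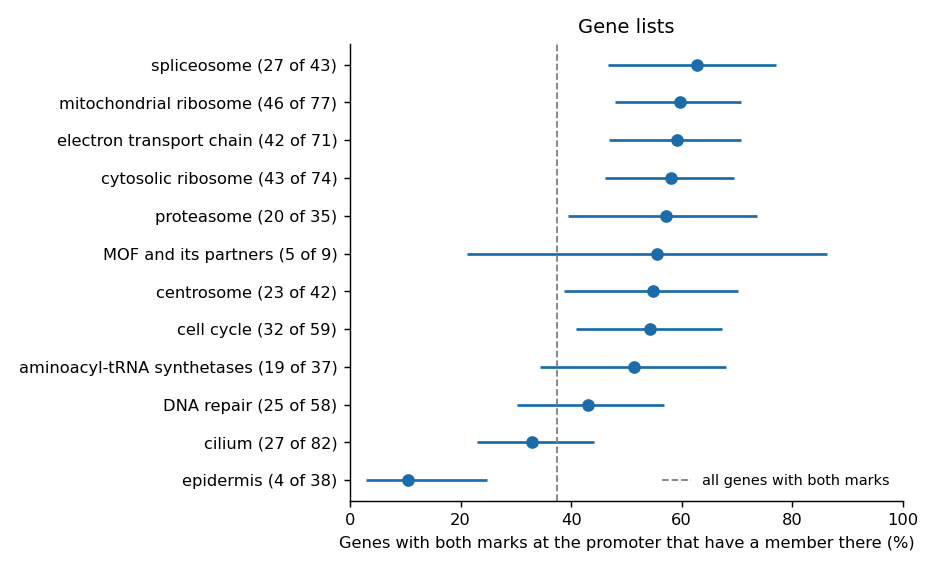
Share of genes with both marks at the promoter that had a member there (%), for 12 lists of at least 5 such genes, with exact 95% intervals and the counts in the labels. The dashed line is the share over all genes with both marks, 37.4%, and the epidermis list lies below it with 4 of 38.

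The genes with the highest MOF scores in each list are given as examples. In the electron transport chain these were Uqcrq (1279), Ndufa5 (1267) and Ndufb8 (1250), the latter pair being subunits of complex I. In the mitochondrial ribosome they were Mrpl20 (2232), Mrpl52 (2083) and Mrpl48 (1326), and in the cytosolic ribosome Rps29 (3863), Rpl12 (1409) and Rps20 (1311). Proteasome genes were led by Psmd3 (1343), Psma1 (1339) and Psmd12 (1179), and aminoacyl-tRNA synthetases by Rars (1975), with Fars2 at 996. The median score of the genes with a member ran over the 12 lists from 535 (proteasome) and 571 (epidermis) to 799 (MOF and its partners) and 800 (aminoacyl-tRNA synthetases), on both sides of the 659 of members within 1 kb of a TSS.

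For the spliceosome, Sf3b4 (1984) and Srsf3 (1682) were followed by Lsm3 (1265), whose member was shared with the DNA repair gene Xpc. DNA repair was led by Ddb1 (1491), Palb2 (1370) and Xpc (1265), all of which act on damaged DNA. For the cell cycle they were Mad2l1 (1320), a protein of the spindle checkpoint, Gins4 (1293) and Orc6 (1032), which act in DNA replication. For the centrosome they were Haus3 (1571) and Haus6 (1543), subunits of the augmin complex, and Azi2 (1318), which is better known as an adaptor in innate immune signalling. Without Azi2, an alternative chosen after seeing the data, the centrosome list had a member at 22 of 41 genes, and its interval began at 37.4%, as rounded the share over all genes with both marks. Of MOF and its partners, Kat8 (987), the NSL subunits Kansl3 (827), Kansl1 (799) and Phf20 (662), and the MSL subunit Msl2 (659) had a member. At Msl2 the H3K4me3 fold enrichment was 1.89, near the lowest of all members (1.61).

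Ciliary genes with a member were led by Ift80 (1465) and Ift46 (1224), subunits of intraflagellar transport, and by Sclt1, Ift74 and Tmem138 (919 each). An Rfx2 peak lay in the promoter window of 9 of the 27 ciliary genes with a member, against 153 of all 4155 genes with a member. The member itself overlapped Rfx2 at Bbs2 (Rfx2 fold enrichment 15.3) and Ttc8 (7.49), subunits of the BBSome, Tctn2 (11.9), Tctn1 (5.82), Tmem138 (7.13) and Ahi1 (5.0), proteins of the transition zone, Ift122 (8.36) and Ift81 (7.77), and Cep41 (6.37), a centrosomal protein. The list was written with earlier results on Rfx2 and cilia known and is no independent evidence.

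Genes of the epidermis seldom had a member. Of 59 epidermal genes, 46 carried H3K4me3 and 38 both marks, and 4 of the 38 had a member (10.5%, 2.94 to 24.8). The interval lay below 37.4%. A member was at Itgb1, an integrin subunit (MOF score 571), Krt14, a keratin of basal cells (516), Lama3 (612), a laminin chain of the basement membrane, and Dsc3, a desmosomal cadherin (736). At Krt14 the fold enrichments were low, 3.98 for H3K4me3 and 2.28 for H3K27ac, next to medians of 8.23 and 6.91 over all members. Among CpG-rich epidermal genes 1 of 19 had a member (5.26%, 0.133 to 26.0), and among the others 3 of 19 (15.8%, 3.38 to 39.6). Of the lists for other cell types, Mitf, the melanocyte factor that many cell types also transcribe, was the single gene with a member (score 736). Of the immune, fibroblast and endothelial genes, 1 fibroblast gene had both marks, so a member could hardly occur there.

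Members over 5 kb from any RefSeq TSS differed from those at TSSs in sequence. The centre of 934 members (19.6%, 18.4 to 20.7) lay over 5 kb from any TSS, 57.5% of them between genes and 39.1% in introns, and 199 lay 1 to 5 kb from a TSS. The distal members were CpG-rich in 11.7% against 79.7% of members within 1 kb of a TSS (difference −68.0, −70.3 to −65.4). They held the AP-1 site, bound by Fos and Jun proteins, in 21.2% against 6.59% (14.6, 12 to 17.4). The ETS motif was in 1.5% against 11.2% (−9.68, −10.9 to −8.27) and the YY1 motif in 3.0% against 7.96% (−4.96, −6.27 to −3.42), while the difference for the E-box included 0, at 12% against 12.6% (−0.584, −2.81 to 1.89). Rfx2 lay at 7 of the 934 distal members, 0.749% against 3.08% (−2.33, −3.05 to −1.38). The sites near Axin2, Limd1, Txndc11 and Lrrc4c, which are among the 10 members with the highest MOF scores described below, belong to these 7. AP-1 was still more frequent in MOF peaks with H3K27ac only, at 26.1%.

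As a description, the marks were lower at the distal members. Their median fold enrichment was 6.80 for H3K4me3 against 8.57 at TSSs and 5.57 for H3K27ac against 7.36, and the overlapped H3K4me3 peak had a median width of 604 bp against 1399 bp. Of the 934, 161 (17.2%) lay within 1 kb of a TSS in GENCODE, which holds more transcripts. The count depended on the strength of the marks: with the more significant 50% of the peaks of each mark, the distal share was 6.77%.

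The nearest gene of a distal member was from the epidermis list for 10 of 934 (1.07%, 0.515 to 1.96), against 7 of 3642 members within 1 kb of a TSS (0.192%, 0.0773 to 0.396). The list holds 59 of the 24963 genes, and the 10 members lay at 8 of them. The low share within 1 kb partly restates that few epidermal promoters had a member (4 of 38 with both marks). For the electron transport chain, the nearest gene was from the list for 1 of 934 distal members (0.107%) against 35 of 3642 (0.961%). The shares lay closer for the cell cycle (0.749% against 0.851%), the proteasome (0.428% against 0.494%) and MOF with its partners (0.214% against 0.137%). The epidermal genes, chosen for naming after their values were seen, were Gata3, Cldn4, Grhl1, Trp63, Itga6, Pkp1 and, with 2 members each, Lama3 and Perp. The member near Trp63, the master regulator of the stratified epithelium, lay 143700 bp from its TSS, with fold enrichments of 4.62 for H3K4me3 and 5.11 for H3K27ac. The member 257592 bp from Gata3, a factor of epidermal differentiation, had 5.87 and 7.61 and held an AP-1 site. The nearest gene is an assignment by distance and does not show which gene a site acts on.

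**Figure D5:**
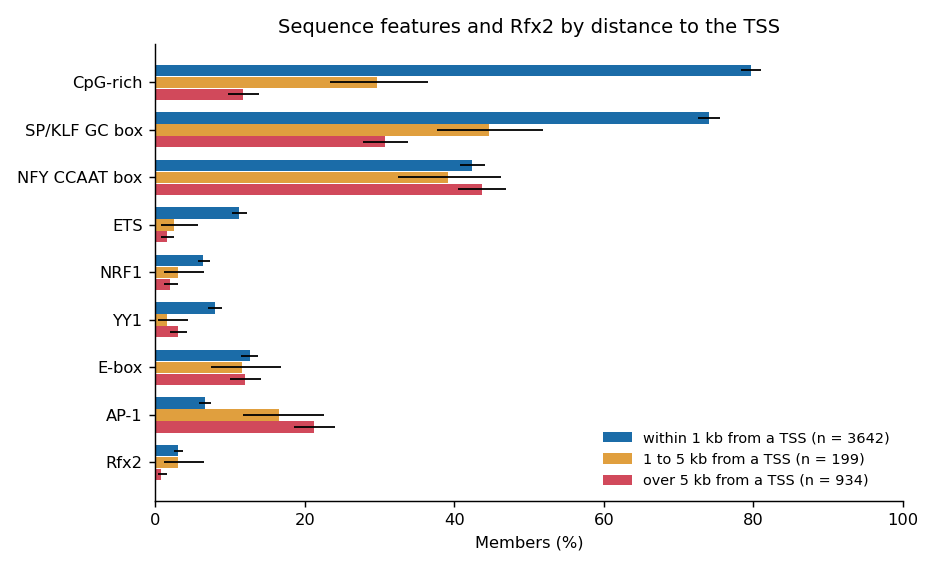
Share of members (%) that were CpG-rich, held each motif in the central 500 bp or overlapped Rfx2, by distance of the centre to the nearest TSS (3642 members within 1 kb, 199 at 1 to 5 kb and 934 over 5 kb). Lines are exact 95% intervals, and AP-1 runs from 6.59% to 21.2% while the CpG-rich share runs from 79.7% to 11.7%.

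MOF score and position moved together over most of the range, but not at its top. Over 5 classes of about equal size from the lowest to the highest score, the share within 1 kb of a TSS was 69.2%, 73.4%, 75.8%, 78.8% and 84.2%. The CpG-rich share was 56.5% in the lowest and 75.6% in the highest class, and the head-to-head share 5.55% and 12.9%. The ETS share was 7.64% in the lowest class (6.04 to 9.52) and 9.88% in the highest (8.06 to 12), intervals that overlap. Score and width were hardly related across the 4775 members (Spearman 0.05), nor were score and H3K4me3 fold enrichment (0.06) or score and H3K27ac fold enrichment (0.14), whereas the fold enrichments of the marks were (0.49). These are descriptions across peaks of the same libraries.

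The 10 members with the highest MOF scores, a number set by the naming rule, had scores from 65333 down to 8919, and the next score was 8891, so that no gap set them off. None lay within 1 kb of a TSS and 9 lay over 5 kb away, 5 between genes, 4 in introns and 1 in an exon, while of the 100 highest 77 lay within 1 kb of a TSS. An Rfx2 peak overlapped 5 of the 10 and 8 of the 100 highest, against 2.62% of all members. In 4 of the 10, more than 50% of the words of 31 bases recurred in the assembly. The share of such words had a median of 29.9% and a range of 8.94% to 74.0%, against a median of 0 over all members. The part of repeated sequence in these scores was not tested.

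Their marks were uneven. The member with the highest score (chr11:109011595-109012161, 91529 bp from Axin2) had an H3K4me3 fold enrichment of 16.8, an H3K27ac fold enrichment of 24.6 and an Rfx2 fold enrichment of 21.8. The next lay in an exon at chr9:123461806-123462248, with 16674 bp to Limd1 (score 56766, fold enrichments 21.5, 5.81 and 8.39 in the same order). An intronic member at chr16:57391088-57391742, 38138 bp from the TSS of Filip1l, followed with 53254, 16.7 and 8.16 and no Rfx2, and one 65003 bp from Cr2 at chr1:195241527-195241917 with 35581, 29.5 and 8.80 and no Rfx2. The member 9589 bp from Txndc11 (chr16:11143866-11144376) had 25902, 11.8, 24.5 and 15.4. The other 5 were nearest to Brox (23911), Lrrc4c (23335), Gm31087 (20104), P4ha2 (13974) and Gm7102 (8919).

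Some of the same sites led the marks. The highest H3K4me3 fold enrichments of members were 33.7 near Adgre5, 29.5 near Cr2, 21.5 near Limd1 and near Ifna13 and 21.2 near Lsm11, none within 1 kb of a TSS. The highest H3K27ac fold enrichments were 24.6 near Axin2, 24.5 near Txndc11, 23.7 near Lrrc4c and 18.5 near Gm31087, all in the list above, and 18.7 at Zfp873, a zinc finger gene 203 bp away. The distal members with the highest H3K27ac fold enrichment were these 4 and a site 26288 bp from Rpp21 (17.1). Without the 40 members of mostly repeated words, the share near a TSS was 76.3%, the CpG-rich share 64.4% and the Rfx2 share 2.56%.

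Members were found on every chromosome from 1 to 19, at 1.34 per Mb on chromosome 14 to 3.56 per Mb on chromosome 11. The share of genes with both marks that had a member varied less, from 31.5% on chromosome 15 (27.2 to 36.1) to 43.1% on chromosome 13 (38.4 to 47.9).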

How the data were processed

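Peak lists of 4 libraries of wild-type total epidermis at postnatal day 0.5 were analysed (MOF, Rfx2, H3K4me3 and H3K27ac). The authors aligned reads with Bowtie2 to mm10 and called peaks with MACS2 in each sample, per the labels and methods. The deposited MOF list is a broad call with inner blocks and a score for each region, without summit, fold or q-value. The scale of this score is not given in the sources used here, and the list is longer than the number of MOF peaks the authors state. The deposited Rfx2, H3K4me3 and H3K27ac lists give for each peak a score, the fold enrichment (ratio over background) and, as −log10, a p-value and a q-value from the authors' peak caller. A control library is not given in the sources used here. The H3K4me3 list is attached to the repeat library but its name lacks that mark, so it may stem from either library of this mark. The lists give no read counts. The authors state the reads of each library, which were not used here, since no value given is a share of reads.

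Overlap was at least 1 bp. TSSs and gene models were those of curated RefSeq transcripts on GRCm38.p6, the assembly of mm10, from which all sequences were read. Repeated words of 31 bases were counted over both strands of chromosomes 1 to 19, X and Y. Motifs were searched on both strands. The X-box was searched as its pair of conserved parts with 0 to 3 bases between them, and motifs may overlap. Shares carry exact (Clopper-Pearson) and differences Newcombe 95% intervals. No p-values were derived, since 1 peak list per antibody was analysed, also for H3K4me3 and H3K27ac, which had 2 libraries each. Python 3.11.15, numpy 2.4.6, scipy 1.17.1, pandas 2.3.3 and numba 0.67.0 were used, and overlap, motif and interval steps were tested on simulated data, with overlaps checked against bedtools 2.31.1.

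The members, gene lists and motifs were chosen with earlier results of these data known. Named are the 10 members with the highest MOF score, the 5 highest in fold enrichment of H3K4me3, of H3K27ac and of Rfx2, the 5 distal members highest in H3K27ac, the loci named in the study that have a member, the 3 highest scores of each gene list, every epidermal or other cell type gene with a member, and the 3 peaks on either side of the width limit. The comparison of TSS windows, of members with and without Rfx2 or head-to-head genes, and of nearest genes was added after seeing the data. Some items that this rule names are not reported here.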

Additional observations from a re-analysis of the deposited data

How the results depend on the processing

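No paired analysis was possible because 1 peak list per antibody was analysed. Of 73 values under alternative settings, 35 stayed within the interval of the reported share or within 1.5 times the reported count and 38 moved. The cause of the moves was not tested unless the setting itself names it.

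With the MOF centre inside a peak of each mark, 81.4% of members lay within 1 kb of a TSS, 15.1% were distal, 10.8% head-to-head, 72.3% CpG-rich, 10.4% held the ETS motif and 100% had all 3 peaks together, as the setting requires. With an overlap of 50% of the shorter peak, the first 2 of these were 77.9% and 18.4%, the CpG-rich share 67.5% and the share with all 3 peaks together 99.7%. With the 50% of MOF peaks of highest score, there were 2859 members and 2641 genes, 79.6% of members near a TSS, 16.9% distal, 10.8% head-to-head and 68.3% CpG-rich. With the 50% of mark peaks of highest significance, 90.3% were near a TSS, 6.77% distal, 12.3% head-to-head and 77.2% CpG-rich, 11.2% held ETS and 99.8% had the peaks together. With a width limit of 1000 bp, there were 3156 members and 2556 genes, 74.3% near a TSS, 21.3% distal, 7.22% head-to-head and 9.82% with ETS.

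Protein-coding transcripts alone gave 74.5% near a TSS, 21.7% distal and 6.93% head-to-head. A TSS distance of 500 bp gave 69.5% and of 2.5 kb 78.7%, and 15.7% lay over 10 kb away. A window of 300 bp gave 62.5% CpG-rich and 6.03% with ETS, where a shorter window leaves less room for a motif. GENCODE transcripts, chosen after seeing the data, gave 81.0% near a TSS and 13.3% distal. The Rfx2 share stayed within its interval in every setting tried (2.56% to 3.09%). The absence of read counts in the lists limits what can be said of weak sites.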
